A study of Mus musculus with 33 samples.

Results

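The regions at 3 calcium-handling loci were examined, those around Ryr2, Pln and Atp2a2, in ChIP-seq of the transcription factors Gata4, Mef2c and Tbx5. Members were all counted regions whose start lay in 1 of 3 windows of the mouse build mm9: chr13:11550000-12290000 for Ryr2, chr10:52950000-53170000 for Pln and chr5:122800000-123050000 for Atp2a2. The rule used position alone, and it gave 28 of the 30815 regions in the deposited table, 11 in the Ryr2 window, 7 in the Pln window and 10 in the Atp2a2 window. Regions are numbered here from the lowest coordinate in each window. No annotation of mm9 was at hand, so whether a region lies in an exon, an intron or between genes was not analysed here, and a region is called by its window and not by a gene it acts on.

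All cells were 1 immortalised line of neonatal mouse cardiac fibroblasts, which carries a T-antigen that Cre can excise, infected with retroviruses for Gata4, Mef2c and Tbx5 together or for 1 of them. All were cultured with inhibitors of Tgfβ (sb431542) and Wnt (xav939) and harvested unsorted at day 2, so uninfected or partly infected cells were not removed. The groups held 6 libraries for Gata4, 4 for Mef2c and 4 for Tbx5 from cells with all 3 factors ("with the others"), 4, 3 and 3 from cells with that factor alone, and 9 of input chromatin. As the labels give a single line, replicates are taken as repeated infections or cultures of that line, and p-values cover only the spread between these samples. Reads on the Y chromosome, given below, differed between libraries, inputs included, and whether the cells were uniform was not tested. Each factor was precipitated with its own antibody, so levels are compared between settings of 1 factor and not between factors.

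Contraction in heart muscle cells depends on calcium released from and returned to the sarcoplasmic reticulum. Ryr2 is the cardiac ryanodine receptor, the channel that releases calcium from this store. Atp2a2 encodes the SERCA2 pump, which returns calcium to it, and Pln encodes phospholamban, a small membrane protein that inhibits the pump until it is phosphorylated. The zinc finger protein Gata4, the MADS box factor Mef2c and the T-box factor Tbx5 act in the developing heart and together convert fibroblasts toward a heart muscle state, and genes of calcium handling are among those such cells switch on.

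The sequences of the regions themselves were not analysed here, since no mm9 genome was at hand. The promoters of Pln and Ryr2 are shown because each of the 3 factors has a known short motif that can be looked for in them, as RefSeq gives them for GRCm38.p6, a later build than that of the counts. Each runs from 250 bases before to 50 after the start of the gene, 5′ to 3′ on the gene's strand, with motif matches in capitals. The Pln promoter is at chr10:53337436-53337735 (plus strand) and that of Ryr2 at chr13:12106896-12107195 (minus strand), and these coordinates cannot be set beside those of the regions.
Pln promoter: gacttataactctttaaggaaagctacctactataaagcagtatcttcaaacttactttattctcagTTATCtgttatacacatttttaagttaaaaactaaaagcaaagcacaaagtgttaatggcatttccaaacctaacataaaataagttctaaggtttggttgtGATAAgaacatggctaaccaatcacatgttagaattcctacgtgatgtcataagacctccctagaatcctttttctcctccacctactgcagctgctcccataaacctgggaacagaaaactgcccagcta
Ryr2 promoter: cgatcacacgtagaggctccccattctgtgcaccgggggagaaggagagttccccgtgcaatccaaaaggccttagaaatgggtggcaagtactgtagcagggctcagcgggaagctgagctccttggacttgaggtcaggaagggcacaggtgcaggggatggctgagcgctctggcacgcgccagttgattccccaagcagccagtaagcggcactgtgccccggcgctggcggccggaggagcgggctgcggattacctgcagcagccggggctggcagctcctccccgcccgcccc
GATAA, a core Gata motif, was searched on both strands and found 2 times in the Pln promoter, at positions 68 to 72 on the minus strand (read as TTATC) and 170 to 174 on the plus strand, counted from the first base printed. It was not found in the Ryr2 promoter, and it is in 25.4% of the 32851 promoters of the table. GGTGT, a core T-box motif held by 41.6% of promoters, and the MEF2 motif, held by 3.19%, matched neither sequence. A match describes letters only, and no match says nothing on binding. Atp2a2 has no entry.

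Values are CPM, the reads in a region per 1000000 reads that the library has over all 30815 regions. They are shares of the reads in these regions, so that when other regions of a library take more, a region's share goes down. Library totals over the regions ran from 352015 to 941173 for Gata4, 383071 to 2377616 for Mef2c and 580261 to 1431928 for Tbx5 with the others, from 222761 to 968131 alone, and from 97474 to 301678 for inputs. The 28 regions held 230 to 2676 reads of each ChIP library and 96 to 362 of each input library, so the inputs gave the least precise values, and a count of 3 equals 23.5 to 30.8 CPM in the 3 inputs of single-factor cells. Libraries that agree within sampling noise were counted as 1 sample (Gata4 with the others 1 and 6, inputs 1 and 3, inputs 2, 4 and 5), which left 29 samples: 5, 4 and 4 with the others, 4, 3 and 3 alone, and 6 inputs. The library labelled Gata4 alone, replicate 4, stood apart. It was compared at the 500 regions with the highest log2 change of Gata4 with the others over input. Its median log2 ratio there to the inputs of cells with all 3 factors was 0.21. The other 3 libraries of its group had 1.57 to 1.74, so the Gata4 results are given with and without replicate 4. Reads on the Y chromosome also split libraries within groups. Gata4 with the others had 138 to 209 CPM there in numbers 1, 3 and 6 and 1.06 to 25.6 in the rest, and the inputs of the same cells 37.5 to 43.1 in numbers 1, 3 and 6 and 0 to 10.3 in the rest. Number 3 had 11.7 CPM for both Mef2c and Tbx5 with the others, where the rest of those groups had 0 to 1.74. Gata4 alone had 284 and 260 CPM in replicates 2 and 3 and 45.5 and 18.0 in replicates 1 and 4. Mef2c alone had 5.31 to 8.71 CPM, Tbx5 alone 11.9 to 18.8 and the inputs of single-factor cells 30.8 to 71.9. Outside number 3, Mef2c and Tbx5 with the others thus lay below every library of the same factor alone. For these factors the split largely follows the setting and was not separated from it. The subset of libraries 2, 4 and 5 keeps only its low side. The labels name no batch, and the part of this split in the results was not tested beyond the subsets of libraries given below.

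Each ChIP group was first set against input chromatin with edgeR's quasi-likelihood test and Benjamini-Hochberg adjustment over all regions tested, at an adjusted p threshold of 0.05. The 6 comparisons share the same 6 input samples and are given side by side. With the others, Gata4 was above input at 11 of the 26 members tested and below it at 4, where 29.8% and 28.2% of all regions tested were. Mef2c with the others was above at 10 of 22 and below at 6 (38.2% and 35.5% of all regions), and Tbx5 at 9 and 6 of 26 (35.4% and 37%). Alone, Gata4 was above input at 4 of 20 and below at 3 (23.7% and 12.8%), Mef2c at 8 and 13 of 26 (33.6% and 39.7%) and Tbx5 at 4 and 6 of 21 (33.4% and 34.8%). As shares of the members tested, Gata4 with the others was above input at 42.3% and below it at 15.4%, and Tbx5 alone was above it at 19.0%. Without replicate 4 of Gata4 alone, which changed how many members passed the filter, Gata4 alone was above input at 8 of 28 and below it at 11.

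**Figure D1:**
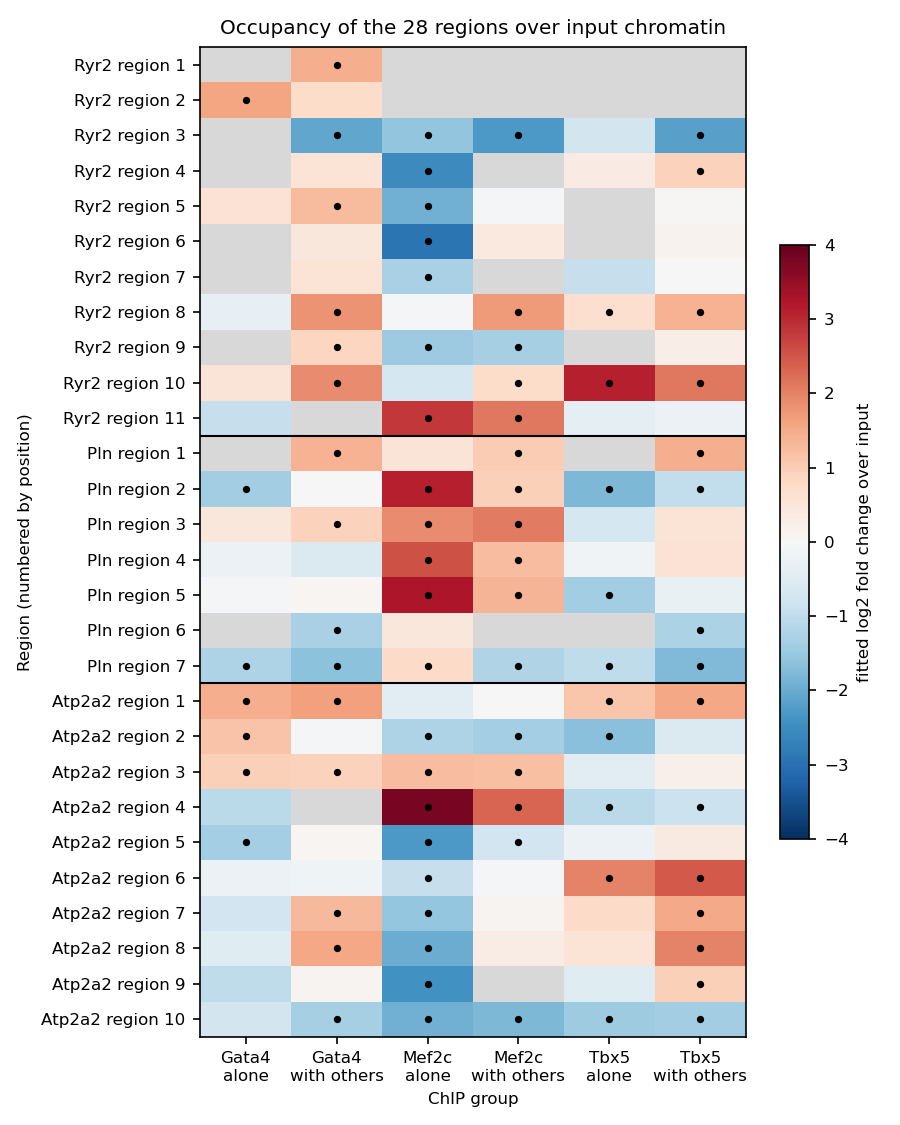
Fitted log2 fold change over input (colour) for the 28 regions (rows) in each factor alone and with the others (columns). Dots mark an adjusted p under 0.05 and grey marks regions that did not pass the filter on low counts. Red cells for Mef2c include several in the Pln window, Ryr2 region 11 and Atp2a2 region 4, and those for Tbx5 include Ryr2 region 10 and Atp2a2 regions 6 to 9.

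The factors called above input were then counted at each member, with a factor not tested counted as not above (at Ryr2 region 1, for example, no factor was tested alone) and with replicate 4 of Gata4 alone kept. By this count, 9 members had none with the others, 11 had 1, 5 had 2 and 3 had all 3. Over all 30815 regions the shares for none, 1, 2 and 3 factors were 40.5%, 41.2%, 14.1% and 4.25%. The 3 members with all 3 factors were Ryr2 regions 8 and 10 and Pln region 1, though the Mef2c call at Ryr2 region 10 was lost under 11 of 16 alternatives and that at Pln region 1 under 3 of 14. When each factor was alone, no member had all 3, 2 had 2 factors (Atp2a2 regions 1 and 3), 12 had 1 and 14 had none, where 0.909%, 7.80%, 52.2% and 39.0% of all regions had 3, 2, 1 and none. By locus, Mef2c alone was above input at 5 of 7 Pln members, 1 of 9 tested in the Ryr2 window and 2 of 10 in the Atp2a2 window. Tbx5 with the others was above at 5 of 10 Atp2a2 members, 3 of 9 in the Ryr2 window and 1 of 7 in the Pln window.

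Calls over input moved with how libraries were scaled. The SE of a change over input does not include this, and changes over input alone and with the others are not to be subtracted from each other. Scaling by library totals in place of TMM (edgeR's trimmed mean scaling) moved the median log2 change of all regions by -1.42 for Mef2c alone, -0.62 for Mef2c with the others, -0.54 for Tbx5 with the others and -0.52 for Tbx5 alone, and by -0.12 and -0.20 for Gata4 with the others and alone. The split of members higher and lower then became 5 and 19 for Mef2c alone, 5 and 7 for Mef2c with the others, 7 and 9 for Tbx5 with the others and 3 and 12 for Tbx5 alone. Comparisons of 1 factor with and without the others shifted by 0.03 for Gata4, 0.05 for Tbx5 and 0.27 for Mef2c, and Mef2c went from 12 higher and 5 lower members to 13 and 4.

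With the others against alone, Gata4 was higher at 11 of the 24 members tested and lower at 1 (16.5% and 15.2% of all regions tested were). Mef2c was higher at 12 of 21 and lower at 5 (31.3% and 28.8%), and Tbx5 was higher at 4 of 20 and lower at 1 (18.8% and 14.9%). The median log2 change was 0.94 over the Gata4 members tested, 0.95 for Mef2c and 0.63 for Tbx5, beside 0.00 (Gata4), 0.15 (Mef2c) and 0.01 (Tbx5) over all regions tested. Members not tested had too few reads: 4 for Gata4 (Ryr2 regions 3 and 11, Pln region 6, Atp2a2 region 4), 7 for Mef2c (Ryr2 regions 2, 3, 4 and 9, Atp2a2 regions 2, 9 and 10) and 8 for Tbx5 (Ryr2 regions 2, 3 and 9, Pln regions 2 and 6, Atp2a2 regions 2, 4 and 10). Since a region can pass the filter through its higher group alone, these counts describe the tested members only. Without replicate 4 of Gata4 alone, Gata4 was higher at 12 members and lower at 2, and all 12 calls made with that library held. The Gata4 count also rested on other libraries: 5 members were called without replicate 1 of Gata4 alone and 7 with only libraries 1, 3 and 6 of Gata4 with the others, against 12 with all.

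By locus, Gata4 was higher at 6 of 9 tested Ryr2 members, 2 of 6 in the Pln window and 3 of 9 in the Atp2a2 window. Mef2c was higher at 5 of 7 and lower at 0 in the Ryr2 window, higher at 2 and lower at 4 of 7 in the Pln window, and higher at 5 and lower at 1 of 7 in the Atp2a2 window. Tbx5 was lower at 1 of 8 Ryr2 members and higher at none there, higher at 2 of 5 in the Pln window and at 2 of 7 in the Atp2a2 window. Gains were counted at each member, with a factor not tested counted as no gain: 12 members had none, 7 had 1, 7 had 2 and 2 had all 3 (Pln region 1 and Atp2a2 region 8), where 74.96%, 13.3%, 7.75% and 4.03% of all regions did. Losses fell on 7 members, each for 1 factor, where 32.1% of all regions lost 1 factor and 1.87% lost 2. Members were tested more often than regions in general. For Gata4, Mef2c and Tbx5, 24, 21 and 20 of 28 members were tested, against 20759, 19391 and 16395 of 30815 regions. These counts and shares are therefore not on equal terms.

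**Figure D2:**
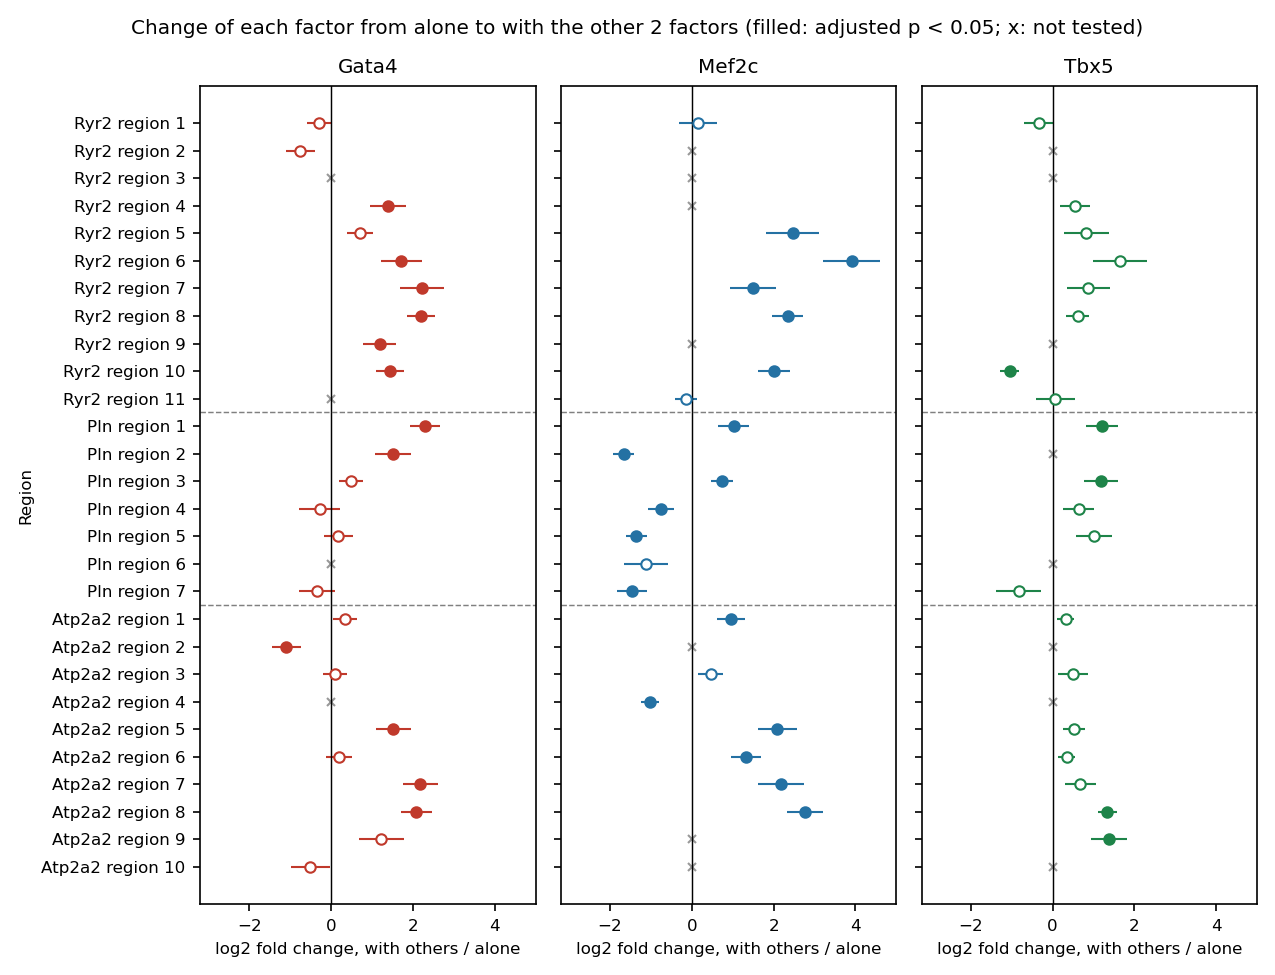
Log2 fold change of each factor with the others over alone at each region, with its standard error (bars). Filled points have an adjusted p under 0.05, open points do not, and crosses at 0 were not tested. Gata4 and Mef2c rise together at Ryr2 regions 6 to 8 and 10, Pln region 1 and Atp2a2 regions 5, 7 and 8, and Mef2c falls at Pln regions 2, 4, 5 and 7 and Atp2a2 region 4.

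Ryr2, the release channel, had its regions in 2 clusters plus outlying ones. Regions 4 to 8 (chr13:12120529-12129422) lay within about 9 kb, with regions 6 and 7 only 66 bp apart, and regions 9 and 10 lay 972 bp apart. Neighbours this close may share fragments of the sheared chromatin and are not separate replicates.

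Ryr2 region 8 (chr13:12129048-12129422) gained both Gata4 and Mef2c. Gata4 gave 26.9, 33.8, 26.4 and 22.4 CPM alone and 178, 92.2, 152, 93.7 and 137 with the others, a log2 change of 2.2 ± 0.34 (SE, edgeR adjusted p = 0.000171). Mef2c gave 7.62, 19.6 and 15.9 CPM alone and 70.5, 117, 50.6 and 113 with the others (2.34 ± 0.38, edgeR adjusted p = 1.07e-05). Tbx5 gave 51.5, 47.8 and 42.4 CPM alone and 74.1, 96.4, 49.1 and 80.3 with the others (0.62 ± 0.28, edgeR adjusted p = 0.103). The Gata4 and Mef2c groups did not overlap, while the lowest Tbx5 sample with the others lay inside the range of Tbx5 alone. Inputs gave 7.82 to 51.3 CPM with a median of 43.5, and with the others each factor was above them by 1.79 ± 0.26 (Gata4), 1.71 ± 0.31 (Mef2c) and 1.38 ± 0.28 (Tbx5) on the log2 scale. Alone, only Tbx5 was called above input, by 0.68 ± 0.31, a call lost under 12 of 14 alternatives.

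Ryr2 region 10 (chr13:12225681-12226065) moved in opposite directions for different factors. Tbx5 gave 299, 200 and 202 CPM alone and 68.9, 137, 142 and 121 with the others, a fall of -1.05 ± 0.23 on the log2 scale (edgeR adjusted p = 0.00314). Gata4 gave 31.0, 77.8, 52.8 and 26.9 CPM alone and 158, 99.4, 111, 202 and 118 with the others (1.44 ± 0.35, edgeR adjusted p = 0.00359). Mef2c gave 12.0, 7.23 and 7.44 CPM alone and 23.5, 47.0, 48.3 and 47.1 with the others (2.01 ± 0.39, edgeR adjusted p = 9.31e-05). None of the 3 pairs of groups overlapped, and Tbx5 was the only one of them to be lower with the others. Tbx5 stayed above input in both settings (3.10 ± 0.23 alone and 2.12 ± 0.27 with the others), and its mean alone, 234 ± 56.3 CPM (SD, n = 3), ranked at the 99.3 percentile of all regions. That rank is of CPM not scaled by width, and the region spans 385 bp, against a median of 234 bp over all regions. The Gata4 gain was 1.21 without replicate 1 of Gata4 alone (edgeR adjusted p = 0.0529) and kept its call under the other 15 alternatives. Mef2c with the others, at 41.5 ± 12.0 CPM (SD, n = 4), was close to the input mean of 42.0 ± 26.7 CPM (SD, n = 6).

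The difference between factors at Ryr2 region 10 was tested in a fit of all ChIP groups. Gata4's change exceeded that of Tbx5 by 2.43 ± 0.49 on the log2 scale (edgeR adjusted p = 0.00209), and Mef2c's by 2.73 ± 0.57 (edgeR adjusted p = 0.00136). Among the 28 members this was the only call for Gata4 against Tbx5 (3.59% of all regions) and 1 of 3 for Mef2c against Tbx5 (13.3% of all regions). Each call held under all 28 alternatives tried. With the replicate number as a block, 2 members were called for Gata4 against Tbx5 and 4 for Mef2c against Tbx5.

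In the cluster of Ryr2 regions 4 to 7 levels were lower. Ryr2 region 6 (chr13:12125753-12125953) gave 2.18, 0 and 1.06 CPM of Mef2c alone and 15.7, 26.0, 8.72 and 30.3 with the others, and the rise passed the test (edgeR adjusted p = 3.46e-05). Mef2c alone had 3 reads there in all, against 124 with the others, a ratio of 20.6 relative to library totals with a counting interval (95%, exact) of 6.89 to 101. The fitted fold of so few reads depends on the prior count and is not given, and the region passed the filter through its higher group. Inputs at this region had 22.2 ± 7.73 CPM (SD, n = 6). Mef2c alone was called below input there, and Mef2c with the others was not called different from it (0.40 ± 0.38). Gata4 at the same region gave 2.07, 8.46, 6.60 and 26.9 CPM alone and 28.0, 35.9, 33.6, 14.2 and 37.2 with the others (1.71 ± 0.51, edgeR adjusted p = 0.013). The Mef2c groups were apart, and the Gata4 groups overlapped only through replicate 4 of Gata4 alone (26.9 CPM) and 14.2 CPM of replicate 4 with the others. Without replicate 4 of Gata4 alone the Gata4 change was 2.37, and without replicate 1 of that group it was 1.30 and lost its call. The call was also lost with only libraries 2, 4 and 5 (1.69) or only 1, 3 and 6 (1.76) of Gata4 with the others.

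Ryr2 region 7 (chr13:12126019-12126228) had Gata4 at 4.14, 1.69, 6.60 and 26.9 CPM alone and 38.7, 51.5, 26.5, 19.9 and 35.1 with the others (2.22 ± 0.54, edgeR adjusted p = 0.00367, and 3.13 without replicate 4 alone). Mef2c there rose by 1.49 ± 0.57 on the log2 scale (edgeR adjusted p = 0.0257), a call lost under 5 of the 9 alternatives in which it was tested. Leaving out each replicate of Mef2c alone was among these 5 (1.10 to 1.66). Under the other alternatives run it was not tested. Mef2c alone had 11 reads at region 7 in all, and its comparison passed the filter through the higher group. Ryr2 region 5 (chr13:12122842-12123137) rose for Mef2c from 2.44 ± 2.16 (SD, n = 3) to 16.4 ± 8.54 CPM (SD, n = 4), a log2 change of 2.47 ± 0.64. Mef2c alone had 7 reads there in all, and its comparison passed the filter through the higher group, so this fold is imprecise. Inputs had 30.4 ± 11.2 CPM (SD, n = 6). Mef2c alone was called below them, and Mef2c with the others was not called different. Gata4 at Ryr2 region 5, at 58.5 ± 16.2 CPM (SD, n = 5) with the others, was above input in that setting (1.26 ± 0.29), and its change from alone was not called (0.70 ± 0.32, edgeR adjusted p = 0.0967). Regions 4 and 9 rose for Gata4, by 1.39 ± 0.44 and 1.18 ± 0.40, where Mef2c was tested at neither and Tbx5 was not tested at region 9. The call at region 4 was lost without replicate 1 or 2 of Gata4 alone (1.41 and 1.03). It was also lost with only libraries 1, 3 and 6 of Gata4 with the others (1.38). The call at region 9 was lost under 8 of 16 alternatives (0.92 to 1.25). With the others, region 8 was the only one of Ryr2 regions 4 to 8 above input for Mef2c, where regions 4 and 7 were not tested.

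Ryr2 region 11 (chr13:12239217-12239419) carried Mef2c in both settings. Its CPM were 61.0, 98.1 and 83.9 alone and 57.4, 91.5, 108 and 89.6 with the others, which overlapped (-0.14 ± 0.28, edgeR adjusted p = 0.683). Both were above input, by 2.82 ± 0.26 and 2.11 ± 0.32 after TMM scaling, and under the alternatives these values went down to 1.38 and 1.26. At this window's low end, Ryr2 regions 1 and 2 were each called above input for Gata4 in 1 setting. Region 1 was called with the others and was not tested alone, and region 2 was called alone and not with the others. Region 1 had 46.7 ± 14.0 CPM alone (SD, n = 4) and 39.8 ± 9.40 with the others (SD, n = 5), against 10.6 ± 10.3 in inputs (SD, n = 6), and region 2 had 52.0 ± 34.8 alone and 33.3 ± 6.83 with the others against 18.7 ± 11.1. Neither changed for Gata4 by the test. Tbx5 at region 1, not tested over input, had 27.2 ± 6.19 CPM alone (SD, n = 3) and 22.3 ± 4.45 with the others (SD, n = 4). Ryr2 region 3 had at most 22.4 CPM in any ChIP sample and 37.1 ± 23.8 CPM in inputs.

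**Figure D3:**
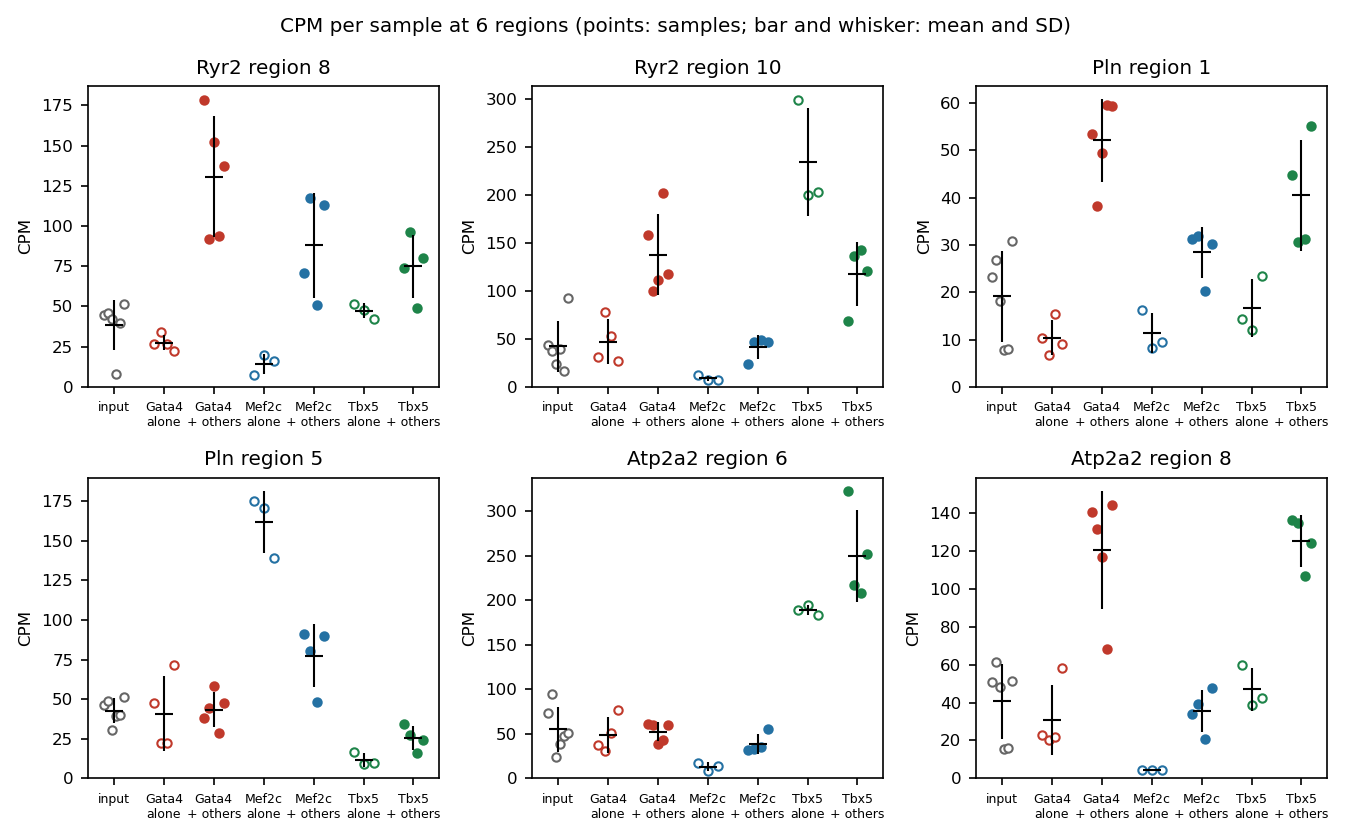
CPM of every sample (points) at 6 regions, for input and for each factor alone (open) and with the others (filled), with mean and SD. Tbx5 alone lies above Tbx5 with the others at Ryr2 region 10, Mef2c alone above Mef2c with the others at Pln region 5, and the filled groups are higher for Gata4 and Mef2c at Ryr2 region 8, Pln region 1 and Atp2a2 region 8.

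Pln, the inhibitor of the pump, had 7 regions. Mef2c was above input at 5 of 7 alone and at 5 of 6 tested with the others (33.6% and 38.2% of all regions tested). Summed over the window, Mef2c alone gave 470 ± 58.7 CPM (SD, n = 3) and 333 ± 28.8 with the others (SD, n = 4), against 247 ± 30.8 in inputs (SD, n = 6). Gata4 had 176 ± 70.8 CPM alone (SD, n = 4) and 252 ± 32.7 with the others (SD, n = 5), and Tbx5 116 ± 32.4 (SD, n = 3) and 168 ± 14.9 (SD, n = 4). These sums are given with no test and are not compared between factors.

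Pln region 5 (chr10:53141370-53141760) had the highest level of Mef2c alone in this window. Mef2c gave 175, 170 and 139 CPM alone and 91.4, 80.6, 48.3 and 89.6 with the others, a log2 change of -1.36 ± 0.25 (edgeR adjusted p = 5.96e-05). Both were above input (3.25 ± 0.20 alone and 1.37 ± 0.28 with the others), where inputs had 30.2 to 51.3 CPM. Under the alternatives these values went down to 1.81 and 0.44. The groups did not overlap, and the changes of Gata4 (0.18 ± 0.36) and Tbx5 (1.01 ± 0.45) did not pass the test.

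Pln region 2 (chr10:53112600-53112802) lost Mef2c and gained Gata4. Mef2c gave 130, 149 and 124 CPM alone and 49.6, 41.1, 51.2 and 61.0 with the others (-1.66 ± 0.26, edgeR adjusted p = 5.8e-06), with no overlap. Gata4 gave 10.3, 6.77, 28.6 and 4.49 CPM alone and 26.2, 32.3, 37.2, 65.3 and 41.4 with the others (1.51 ± 0.44, edgeR adjusted p = 0.0125). Inputs averaged 38.8 ± 13.7 CPM (SD, n = 6), so Gata4 was below input alone (-1.39 ± 0.47) and not called different from it with the others (-0.02 ± 0.28). The Gata4 gain was lost under 3 of 16 alternatives, among them leaving out replicate 1 or 2 of Gata4 alone (1.34 and 1.22), and its groups overlapped at 28.6 and 26.2 CPM.

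The differences between factors at both regions were themselves tested, and only at Pln region 2 were both changes called, in opposite directions. Gata4's change exceeded Mef2c's by 3.47 ± 0.53 at Pln region 2 (edgeR adjusted p = 5.92e-05) and by 1.91 ± 0.44 at Pln region 5 (edgeR adjusted p = 0.00312), the 2 calls among 28 members for this pair (13.5% of all regions; 4 members with the replicate number as a block). Mef2c's change was below that of Tbx5 by -2.76 ± 0.64 and -2.72 ± 0.54 on the log2 scale. All 4 calls held under the 28 alternatives. At Pln region 2 Tbx5 had too few reads for its own test, at 8.28 ± 3.87 CPM alone (SD, n = 3) and 13.8 ± 2.91 with the others (SD, n = 4).

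Pln region 1 (chr10:53044716-53044920), 67680 bp from the next region, was 1 of 2 members that rose for all 3 factors. Gata4 gave 10.3, 6.77, 15.4 and 8.98 CPM alone and 53.6, 38.3, 49.6, 59.7 and 59.5 with the others (2.29 ± 0.37, edgeR adjusted p = 0.000231). Mef2c gave 16.3, 8.26 and 9.56 CPM alone and 31.3, 31.9, 20.4 and 30.3 with the others (1.03 ± 0.38, edgeR adjusted p = 0.0205). Tbx5 gave 14.4, 11.9 and 23.5 CPM alone and 44.8, 30.7, 31.3 and 55.2 with the others (1.21 ± 0.39, edgeR adjusted p = 0.0266). No pair of groups overlapped. With the others each factor was above input (1.39 ± 0.30, 1.02 ± 0.35 and 1.47 ± 0.34 for Gata4, Mef2c and Tbx5). The Mef2c and Tbx5 gains were each lost under 4 of 13 alternatives, the Gata4 gain under 0 of 16. Left-out samples that ended the Mef2c call were replicates 2 and 3 alone (0.75 and 0.82), and those that ended the Tbx5 call were replicates 1 and 2 alone and 5 with the others (1.06 to 1.08).

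Pln region 3 (chr10:53130606-53130989) rose for Mef2c while its neighbours fell. Mef2c gave 55.5, 50.6 and 59.5 CPM alone and 86.1, 115, 119 and 119 with the others (0.74 ± 0.27, edgeR adjusted p = 0.019), and Tbx5 rose from 18.3 ± 11.9 (SD, n = 3) to 41.1 ± 5.28 CPM (SD, n = 4; 1.19 ± 0.41). Both sets of groups were apart, but each call was lost under 5 of 13 alternatives. Leaving out any replicate of Mef2c alone ended the Mef2c call (0.58 to 0.69), and leaving out replicate 1 or 3 of Tbx5 alone or 2 or 5 with the others ended that of Tbx5 (0.71 to 1.24). Pln region 4, 2233 bp before region 5, fell for Mef2c by -0.75 ± 0.32 on the log2 scale (edgeR adjusted p = 0.0457), with samples of 88.2, 56.8 and 37.2 CPM alone overlapping 20.9, 43.6, 45.9 and 53.8, and lost its call under 8 of 13 alternatives (-0.48 to -0.90), leaving out replicate 1 or 2 alone or 2, 3 or 5 with the others among them. Pln region 7 (chr10:53159925-53160343) fell for Mef2c by -1.46 ± 0.36 (edgeR adjusted p = 0.0011). Inputs there, at 53.3 ± 19.0 CPM (SD, n = 6), were above the mean of every ChIP group, Mef2c alone included (35.3 ± 8.03, SD, n = 3). After TMM scaling Mef2c alone was nonetheless called above input there (0.77 ± 0.27), a call lost under 7 of 14 alternatives. Pln region 6 was at or under 23.8 CPM in every ChIP group mean, with no call between settings.

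Atp2a2, the pump, had the largest summed levels of Gata4 and Tbx5 among the 3 windows, which differ in length and number of regions. Tbx5 summed to 478 ± 37.4 CPM alone (SD, n = 3) and 734 ± 99.6 with the others (SD, n = 4), and Gata4 to 442 ± 46.5 (SD, n = 4) and 649 ± 74.6 (SD, n = 5), with inputs at 416 ± 94.5 (SD, n = 6). Input sums were also largest in this window, against 316 ± 55.4 for Ryr2 and 247 ± 30.8 for Pln (SD, n = 6), so the ranking alone does not show more binding. Atp2a2 region 6 (chr5:122952064-122952582) was the top Tbx5 member. Tbx5 gave 190, 194 and 184 CPM alone and 322, 217, 208 and 252 with the others, which did not overlap but did not pass the test (0.35 ± 0.21, edgeR adjusted p = 0.199). Both were above input (1.97 ± 0.22 and 2.45 ± 0.22), and the level with the others ranked at the 99.8 percentile of all regions. This rank is not scaled by width, and the region spans 519 bp, against a median of 234 bp over all regions. Mef2c at region 6 rose from 13.2 ± 4.61 (SD, n = 3) to 38.7 ± 11.6 CPM (SD, n = 4; 1.32 ± 0.37), with inputs at 55.1 ± 25.3, and the call was lost without replicate 2 of Mef2c alone (0.97).

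Atp2a2 region 8 (chr5:122970843-122971383), the widest member at 541 bp, rose for all 3 factors. Gata4 gave 22.8, 20.3, 22.0 and 58.4 CPM alone and 141, 132, 117, 68.2 and 145 with the others (2.08 ± 0.37, edgeR adjusted p = 0.00043, and 2.51 without replicate 4 alone). Mef2c gave 4.36, 4.13 and 4.25 CPM alone and 33.9, 39.4, 20.9 and 47.5 with the others (2.77 ± 0.44, edgeR adjusted p = 9.83e-06). Tbx5 gave 59.7, 38.8 and 42.4 CPM alone and 136, 135, 107 and 124 with the others (1.34 ± 0.24, edgeR adjusted p = 0.000867). No pair overlapped, and all 3 gains held under every alternative tried. Mef2c alone had 12 reads there in all, and its comparison passed the filter through the higher group. Inputs had 15.6 to 61.4 CPM, so Gata4 and Tbx5 with the others were above input (1.54 ± 0.26 and 1.98 ± 0.25), while Mef2c with the others was not called above it (0.29 ± 0.34).

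Atp2a2 region 7 (chr5:122968686-122968913), 1930 bp before region 8, rose for Gata4 and Mef2c. Gata4 gave 14.5, 5.08, 11.0 and 35.9 CPM alone and 53.6, 92.2, 49.6, 51.1 and 73.3 with the others (2.18 ± 0.42, edgeR adjusted p = 0.000768). Mef2c gave 2.18, 1.03 and 7.44 CPM alone and 33.9, 10.1, 14.0 and 26.9 with the others (2.18 ± 0.56, edgeR adjusted p = 0.00164). Neither pair overlapped. Atp2a2 region 5 rose for the same 2 factors, Gata4 by 1.52 ± 0.42 and Mef2c by 2.09 ± 0.48, but inputs there, at 71.7 ± 18.6 CPM (SD, n = 6), were as high as Gata4 with the others (73.1 ± 29.5, SD, n = 5). Mef2c at region 5 was called below input in both settings, at 5.27 ± 2.66 CPM alone (SD, n = 3, 15 reads in all) and 30.3 ± 17.2 with the others (SD, n = 4). The Gata4 call there was lost without replicate 1 or 2 of Gata4 alone (1.26 and 1.24). It was also lost with only libraries 1, 3 and 6 of Gata4 with the others (1.03). Atp2a2 region 9 rose for Tbx5 from 12.8 ± 7.37 (SD, n = 3) to 36.4 ± 8.87 CPM (SD, n = 4; 1.38 ± 0.44, edgeR adjusted p = 0.0237), a call lost without replicate 2 or 3 of Tbx5 alone (1.09 and 1.28).

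Atp2a2 region 4 (chr5:122889701-122889903) was a Mef2c region. Mef2c gave 203, 209 and 215 CPM alone, the highest Mef2c levels among the members, and 110, 128, 146 and 106 with the others, a fall of -1.03 ± 0.22 on the log2 scale (edgeR adjusted p = 0.000236). It was above input by 3.81 ± 0.20 alone and 2.33 ± 0.31 with the others, down to 2.37 and 1.02 under the alternatives. The fall held under all 13 alternatives. Gata4 (at most 35.9 CPM in any sample) and Tbx5 (at most 18.5) were low there. Atp2a2 region 2 (chr5:122827041-122827304) was the one member that lost Gata4, from 86.9, 55.8, 74.8 and 26.9 CPM alone to 17.6, 41.9, 21.2, 14.2 and 48.9 with the others (-1.09 ± 0.36, edgeR adjusted p = 0.0233). These overlapped through replicate 4 alone, and the call was lost under 6 of 16 alternatives (-0.76 to -1.08), though without replicate 4 alone it was -1.23.

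Atp2a2 region 1 (chr5:122822093-122822607) carried Gata4 and Tbx5 in both settings. Gata4 gave 178, 161, 128 and 98.8 CPM alone and 177, 141, 184, 227 and 199 with the others (0.34 ± 0.30, edgeR adjusted p = 0.425), and the latter ranked at the 99.6 percentile of all regions. The rank is not scaled by width, and this region spans 515 bp. Tbx5 gave 78.3, 131 and 94.2 CPM alone and 131, 121, 133 and 133 with the others (0.32 ± 0.21, edgeR adjusted p = 0.256). Both factors were above input in both settings, and their groups overlapped. The call of Tbx5 alone over input (1.11) was lost under 4 of 14 alternatives, down to 0.23. That of Gata4 alone was lost under 1 of 15, the inputs of single-factor cells (0.91). Tbx5 with the others lost its call under 1 of 16, the replicate block with inputs of the same cells (0.45). Mef2c rose there from 17.3 ± 2.02 (SD, n = 3) to 40.7 ± 9.36 CPM (SD, n = 4; 0.95 ± 0.34), below the input mean of 55.3, and lost the call without any 1 replicate of Mef2c alone (0.80 to 0.95). Atp2a2 region 3 was above input for Gata4 and Mef2c in both settings with no call between them (0.10 ± 0.30 and 0.46 ± 0.30). The call of Gata4 alone over input at region 3 was lost under 11 of 14 alternatives. That of Gata4 with the others was lost under 3 of 17 and that of Mef2c with the others under 4 of 16, both down to 0.09. Mef2c alone had 33.9 ± 5.84 CPM (SD, n = 3), close to 33.7 ± 15.2 in inputs (SD, n = 6). Its call after TMM scaling was lost under 2 of 13 alternatives, library totals and inputs of single-factor cells, down to -0.21. Atp2a2 region 10 had a higher mean in inputs (42.6 ± 20.3 CPM, SD, n = 6) than in any ChIP group.

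**Figure D4:**
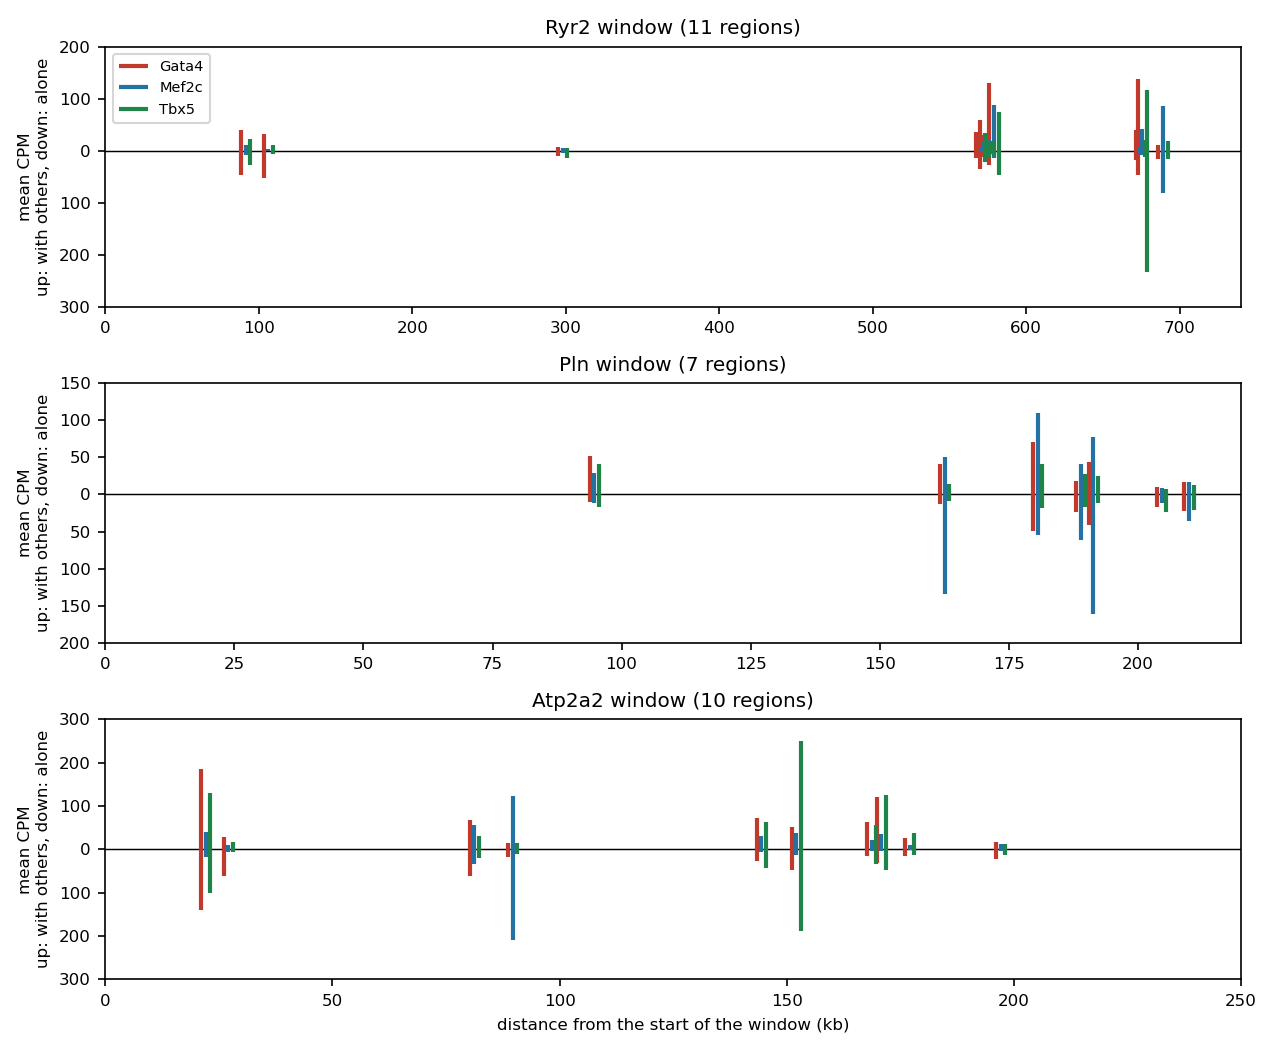
Mean CPM of each region by its distance from the start of the window (kb), upward with the others and downward alone, with the 3 factors drawn side by side, so that bars of regions a few kb apart overlap. Tall downward bars mark Tbx5 alone at Ryr2 region 10 (mean 234), Mef2c alone at Pln regions 2 and 5 (134 and 162) and Mef2c alone at Atp2a2 region 4 (209), and a tall upward bar marks Tbx5 with the others at Atp2a2 region 6 (250).

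A gain from alone to with the others is not the same as a level above input, and the members were counted on both. Of the 11 Gata4 gains, 6 were also above input with the others (Ryr2 regions 8, 9 and 10, Pln region 1, Atp2a2 regions 7 and 8). Of the 12 Mef2c gains 4 were (Ryr2 regions 8 and 10, Pln regions 1 and 3), and of the 4 Tbx5 gains 3 were (Pln region 1, Atp2a2 regions 8 and 9). Among the other Mef2c gains, 6 were not called over input with the others, 1 was below it (Atp2a2 region 5) and 1 was not tested (Ryr2 region 7). Over all regions that gained, 55.5% (Gata4), 46.4% (Mef2c) and 65.8% (Tbx5) were above input with the others, so the members' counts stand near the background. All 5 Mef2c losses were at members above input alone, as were the single Gata4 loss and the single Tbx5 loss, beside 91.9% (Mef2c), 42.4% (Gata4) and 80.8% (Tbx5) of all regions that lost that factor. The input calls at Pln region 7 (Mef2c alone), Atp2a2 region 2 (Gata4 alone) and Ryr2 region 10 (Mef2c with the others) were lost under 7 of 14, 6 of 14 and 11 of 16 alternatives. For the 4 of 5 Mef2c losses other than Pln region 7, Mef2c was also called above input with the others, but 3 of these calls were lost under some alternatives: Pln region 2 under 5 of 16 (down to 0.04), Pln region 4 under 4 of 15 (down to 0.34) and Pln region 5 under 2 of 16 (down to 0.44). Among the gains, the input call of Gata4 with the others at Ryr2 region 9 was lost under 7 of 17, and that of Tbx5 with the others at Atp2a2 region 9 under 4 of 15 (down to 0.12).

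The regions most alike to the leading members were sought over the 29 samples by Pearson's r of log2 CPM among the other 30787 regions, as a description with no test. Ryr2 region 10 was most like chr11:49624480-49625246 (r = 0.924), Pln region 5 most like chr3:26427767-26428082 (r = 0.926) and Atp2a2 region 1 most like chr8:59947494-59947739 (r = 0.968). The points share antibodies, inputs and depth, so high r values mark a common order of groups. In RefSeq (GRCm38.p6) the coding genes next to the 3 are Chrm3 and Mtr beside Ryr2, Slc35f1 and Mcm9 beside Pln, which overlaps Cep85l, and Anapc7 and Ift81 beside Atp2a2, and the windows may hold regions that lie nearer to these.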

How the data were processed

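ChIP and input reads of 33 libraries had been counted over 30815 regions. The deposited values are whole-number counts per region, not normalised by the authors. FastQC, Bowtie2 2.2.4 and featureCounts were used with build mm9, per the submitters' processing notes. How the regions were chosen is not given in the sources used here, so counts of enriched regions may depend on that choice. Libraries that did not differ by a chi-square test over regions with at least 10 reads in the pair, where other pairs of the group did, were counted as 1 sample. Counts were fitted over all regions with edgeR 4.0.16 in R 4.3.3 (quasi-likelihood, robust, TMM, filterByExpr with a minimum count of 10 and a minimum total of 15), two-sided, with Benjamini-Hochberg adjustment and a threshold of 0.05. The SE was taken from the size of the log2 change and the F statistic. Levels in CPM are reads per 1000000 over the regions, without TMM. The fit was also run on simulated counts with a single fixed dispersion, and the outcome is not reported here. That simulation held no stray library, no split between libraries and no shift in composition, so it cannot speak to these. Alternatives were DESeq2 1.42.0, library totals, no filter, every library apart, other inputs, subsets of libraries, a replicate block and each sample left out. An alternative in which a region was not tested is left out of the number of alternatives given for it. Such runs count neither as kept nor as lost, so numbers of alternatives differ between regions. The members, windows and naming rule (members with a call between settings, and the highest members per factor and locus) were chosen with earlier results of these data known. A wider list of calcium-handling genes and motif searches in the regions were not run, for want of an mm9 annotation and genome. Same-numbered libraries of a factor with and without the others correlated from -0.35 to 0.25, so the numbers do not pair them. Between factors with the others, same-numbered libraries correlated from 0.12 to 0.47 (Gata4 and Tbx5), 0.24 to 0.58 (Mef2c and Tbx5) and 0.06 to 0.49 (Gata4 and Mef2c), so by a limit of 0.1 in every pair the numbers pair the first 2 sets, and the blocked counts of differences between factors are given beside them.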

Additional observations from a re-analysis of the deposited data

Results flagged for a closer look

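At 6 points 2 factors' changes from alone to with the others differed by the interaction test (log2 difference, edgeR adjusted p under 0.05). Gata4 exceeded Mef2c by 3.47 at Pln region 2 and 1.91 at Pln region 5. Gata4 exceeded Tbx5 by 2.43 at Ryr2 region 10, where Mef2c exceeded Tbx5 by 2.73. Mef2c against Tbx5 was -2.76 at Pln region 2 and -2.72 at Pln region 5.

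Of 90 groups of 4 to 6 samples examined at the 18 named members, 11 held a sample that stood apart from the others, and chance alone gives about 5% of groups. In Gata4 with the others, replicate 4 was high at Ryr2 region 4 (65.3 CPM, the others 20.4 to 31.9), and replicates 1 and 6, counted as 1 sample, were low at Pln region 7 (11.0 CPM, the others 17.0 to 19.5). In Mef2c with the others, replicate 4 was low at Ryr2 region 7 (5.23, the others 15.7 to 17.2) and at Pln region 1 (20.4, the others 30.3 to 31.9). Replicate 2 of that group was low at Ryr2 region 10 (23.5, the others 47.0 to 48.3) and Pln region 3 (86.1, the others 115 to 119), and high at Pln region 7 (31.3, the others 10.9 to 14.3). Replicate 5 was high at Atp2a2 region 6 (55.9, the others 31.3 to 34.9). Replicate 4 of Gata4 alone was high at Atp2a2 region 8 (58.4, the others 20.3 to 22.8). Among inputs, that of Gata4 cells was low at Ryr2 region 8 (7.82, the others 39.9 to 51.3) and that of Tbx5 cells high at Ryr2 region 10 (92.3, the others 16.0 to 43.8).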

How the results depend on the processing

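Of 1328 recomputed member calls, 1159 kept direction and side of the threshold, 162 lost the call and 7 reversed. Runs in which a member was no longer tested are not among the 1328. The reversed values, each against a call above input, were -0.10 for Mef2c with the others at Ryr2 region 10 (every library apart), -0.67 and -0.55 for Mef2c alone at Pln region 7 (library totals, every library apart), -0.21 for Mef2c alone at Atp2a2 region 3 (library totals), and -0.49, -0.19 and -0.11 for Tbx5 alone at Ryr2 region 8 (inputs of single-factor cells, without inputs 1 and 3, without inputs 2, 4 and 5). The cause was not tested.

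Leaving out 1 sample gave 5 to 14 called members for Gata4 with the others against alone (12 with all), lowest without replicate 1 of Gata4 alone, 11 to 16 for Mef2c (17), lowest without replicate 2 of Mef2c alone, and 3 to 8 for Tbx5 (5), highest without replicate 4 with the others. Over input the ranges were 9 to 20 (15), 8 to 18 (16) and 12 to 17 (15) for Gata4, Mef2c and Tbx5 with the others, and 2 to 19 (7), 15 to 22 (21) and 5 to 10 (10) alone. Gata4 alone gave 19 without its replicate 4. For the differences between factors they were 2 to 4 (2), 1 to 3 (1) and 3 to 5 (3). Only the 3-factor Gata4 libraries 1, 3 and 6 gave 7 members called. With every library apart, counts over input were 10 (Mef2c with the others), 9 (Tbx5 with the others) and 13 (Mef2c alone). The inputs of single-factor cells gave 0 for Gata4, 11 for Mef2c and 3 for Tbx5 alone. Mef2c against Tbx5 gave 5 with DESeq2 and 6 with library totals.

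The replicate block, whose numbers do not pair a factor's libraries with and without the others, gave 11, 14 and 6 called members for Gata4, Mef2c and Tbx5 with the others against alone. Over the inputs of the same cells it gave 12, 11 and 8 (8 against 15 for Tbx5), and for differences between factors 4, 2 and 4 (Gata4 against Mef2c, Gata4 against Tbx5, Mef2c against Tbx5). No paired analysis was possible for single factors over input because those inputs are 1 library each.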
